A study of Mus musculus with 9 samples.

Results

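Interferon-stimulated genes and RNA sensors, the antiviral gene programme that cells hold ready or switch on under interferon, were followed through 3 populations of dendritic cell (DC) progenitors. The list named 45 genes by their function and was chosen with earlier results of these data known. A gene was measured where a probe set of the array carried its symbol alone. That held for 42 of the 45, among 19938 genes measured in all. The remaining 3 were not analysed: the probe set of Isg15 carried a second symbol, and no probe set was paired with Phf11b or Ifi44. Transcripts were measured on 9 Affymetrix whole-transcript arrays, 3 for each of 3 populations sorted by flow cytometry from bone marrow whose donor mice carried 1 copy of a Zbtb46-GFP reporter. Zbtb46 is a transcription factor of classical DCs, and the green fluorescent protein marks cells in which its locus is active. The groups were common DC progenitors without reporter signal (Zbtb46- CDPs), common DC progenitors with it (Zbtb46+ CDPs), and the precursors labelled Pre-CD8 DCs, committed to the CD8 lineage that is also called cDC1. All 3 groups carried the reporter allele, and the labels give no strain, age, stimulus or infection. They do not say whether the replicates came from separate mice, so a p here covers the spread between arrays, whatever its source.

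Type I interferons bind the receptor chains Ifnar1 and Ifnar2 and act through the kinases Jak1 and Tyk2 on a complex with Stat2 and Irf9 that binds interferon-stimulated response elements in the promoters of these genes. Their products degrade or bind viral RNA, block translation, hold virions at the cell surface or tune the pathway itself. Cytosolic sensors such as MDA5, encoded by Ifih1, recognise foreign RNA and signal through the adaptor Mavs to induce interferon, and most sensors are themselves interferon-stimulated. Stem and progenitor cells are known to keep some of these genes on without infection, and cDC1 are known for their sensing of double-stranded RNA.

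The promoters of 5 members whose results are described below are shown first, because the pathway acts through response elements in promoters. They are RefSeq windows of build GRCm38.p6 that run from 250 bases before to 50 bases after the annotated gene start, printed 5′ to 3′ on the strand of the gene. Capitals mark the core of the interferon-stimulated response element, searched on both strands as 2 copies of GAAA with any 2 bases between them. Ifih1 (minus strand, chr2:62646206-62646505) and Eif2ak2 (minus strand, chr17:78882523-78882822) dipped in Zbtb46+ CDPs. Phf11a (minus strand, chr14:59297473-59297772), Stat2 (plus strand, chr10:128270248-128270547) and Samd9l (minus strand, chr6:3399522-3399821) rose at both steps.
Ifih1: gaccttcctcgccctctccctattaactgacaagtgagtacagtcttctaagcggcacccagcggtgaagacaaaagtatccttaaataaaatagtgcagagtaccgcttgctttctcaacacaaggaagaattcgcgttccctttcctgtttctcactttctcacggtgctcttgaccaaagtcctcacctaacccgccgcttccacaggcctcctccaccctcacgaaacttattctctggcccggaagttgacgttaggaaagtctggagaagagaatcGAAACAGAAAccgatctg
Eif2ak2: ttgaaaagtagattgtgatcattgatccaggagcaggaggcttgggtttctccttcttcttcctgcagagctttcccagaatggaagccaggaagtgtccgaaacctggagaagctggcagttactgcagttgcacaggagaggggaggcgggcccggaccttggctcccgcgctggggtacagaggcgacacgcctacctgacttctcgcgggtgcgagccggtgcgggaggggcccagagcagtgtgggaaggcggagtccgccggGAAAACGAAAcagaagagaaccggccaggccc
Phf11a: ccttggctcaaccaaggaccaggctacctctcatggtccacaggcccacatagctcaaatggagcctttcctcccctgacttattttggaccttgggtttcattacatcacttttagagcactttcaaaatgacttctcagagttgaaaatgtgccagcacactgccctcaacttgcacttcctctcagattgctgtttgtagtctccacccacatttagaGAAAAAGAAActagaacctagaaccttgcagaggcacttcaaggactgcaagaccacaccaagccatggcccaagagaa
Stat2: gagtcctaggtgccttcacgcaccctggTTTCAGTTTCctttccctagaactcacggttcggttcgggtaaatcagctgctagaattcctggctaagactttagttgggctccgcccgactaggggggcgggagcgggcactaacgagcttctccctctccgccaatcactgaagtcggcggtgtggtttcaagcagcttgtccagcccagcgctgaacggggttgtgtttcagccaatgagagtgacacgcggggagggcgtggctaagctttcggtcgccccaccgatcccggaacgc
Samd9l: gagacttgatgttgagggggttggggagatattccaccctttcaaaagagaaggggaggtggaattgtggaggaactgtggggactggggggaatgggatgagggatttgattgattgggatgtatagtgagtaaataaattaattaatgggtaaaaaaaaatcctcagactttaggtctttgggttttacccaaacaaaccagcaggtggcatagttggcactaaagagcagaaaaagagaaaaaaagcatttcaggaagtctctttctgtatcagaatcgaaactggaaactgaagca
The Ifih1 and Eif2ak2 motifs lie after the annotated start, at bases 283 to 292 and 269 to 278 of the window, that of Phf11a lies shortly before it, at bases 222 to 231, and that of Stat2 lies far upstream and on the other strand, at bases 29 to 38. The Samd9l window holds no match to these letters. That does not show that the gene lacks the element, since variant forms and sites outside the window were not searched. Of the 42 measured members, 32 had a promoter in the RefSeq table, and 13 of the 32 held the motif in at least 1 window (40.6%), against 1079 of 27025 genes in the table (3.99%). Matches were found in 7 of 16 members whose group means rose steadily and in 4 of 12 whose mean dipped in Zbtb46+ CDPs, so both patterns included promoters with and without the motif. A match is a description of the sequence and not evidence of binding.

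A set led by Samd9l, Phf11a, Usp18 and Mx1 was higher in Zbtb46+ CDPs than in Zbtb46- CDPs and higher again in Pre-CD8 DCs, and a set led by Ifih1, Eif2ak2 and Parp14 was lowest in Zbtb46+ CDPs. By the order of the group means alone, 21 of 42 members went steadily up, against 14.8% of all genes, and 15 had their lowest mean in Zbtb46+ CDPs, against 26.5% of all genes. Another 3 had their highest mean in Zbtb46+ CDPs, against 42.7%, and 3 went steadily down, against 16.0%. In Zbtb46+ CDPs against Zbtb46- CDPs, called the first step below, 9 members were called higher, where the share of all genes was 3.85%, and 8 were called lower, where it was 10.6% (limma, with p adjusted by Benjamini-Hochberg across the 19938 genes and called below 0.05). In Pre-CD8 DCs against Zbtb46+ CDPs, the second step, 20 members were called higher, where the share of all genes was 4.76%. At that step no member was called lower, at an adjusted p (0 of 42) or at an unadjusted p under 0.05 (0 of 42), where 1.86% of all genes were called lower and 6.89% were lower at an unadjusted p under 0.05. The median log2 difference of the members was 0.039 at the first step and 0.50 at the second, beside 0.037 and -0.034 over all genes. Both steps use the same Zbtb46+ arrays, so a low value there moves the first difference down and the second up. The arrays of Zbtb46+ CDPs and Zbtb46- CDPs did not overlap for 13 members that were higher (11.8% of all genes) and 12 that were lower (17.4%), and those of Pre-CD8 DCs and Zbtb46+ CDPs for 27 that were higher (12.6%) and 1, Cmpk2, that was lower (10.3%). Over the whole span, in Pre-CD8 DCs against Zbtb46- CDPs, 17 members were higher (6.43% of all genes) and 2 lower (9.23%). Since the members were chosen with earlier results known, these counts beside the shares of all genes are not independent support for either pattern.

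**Figure D1:**
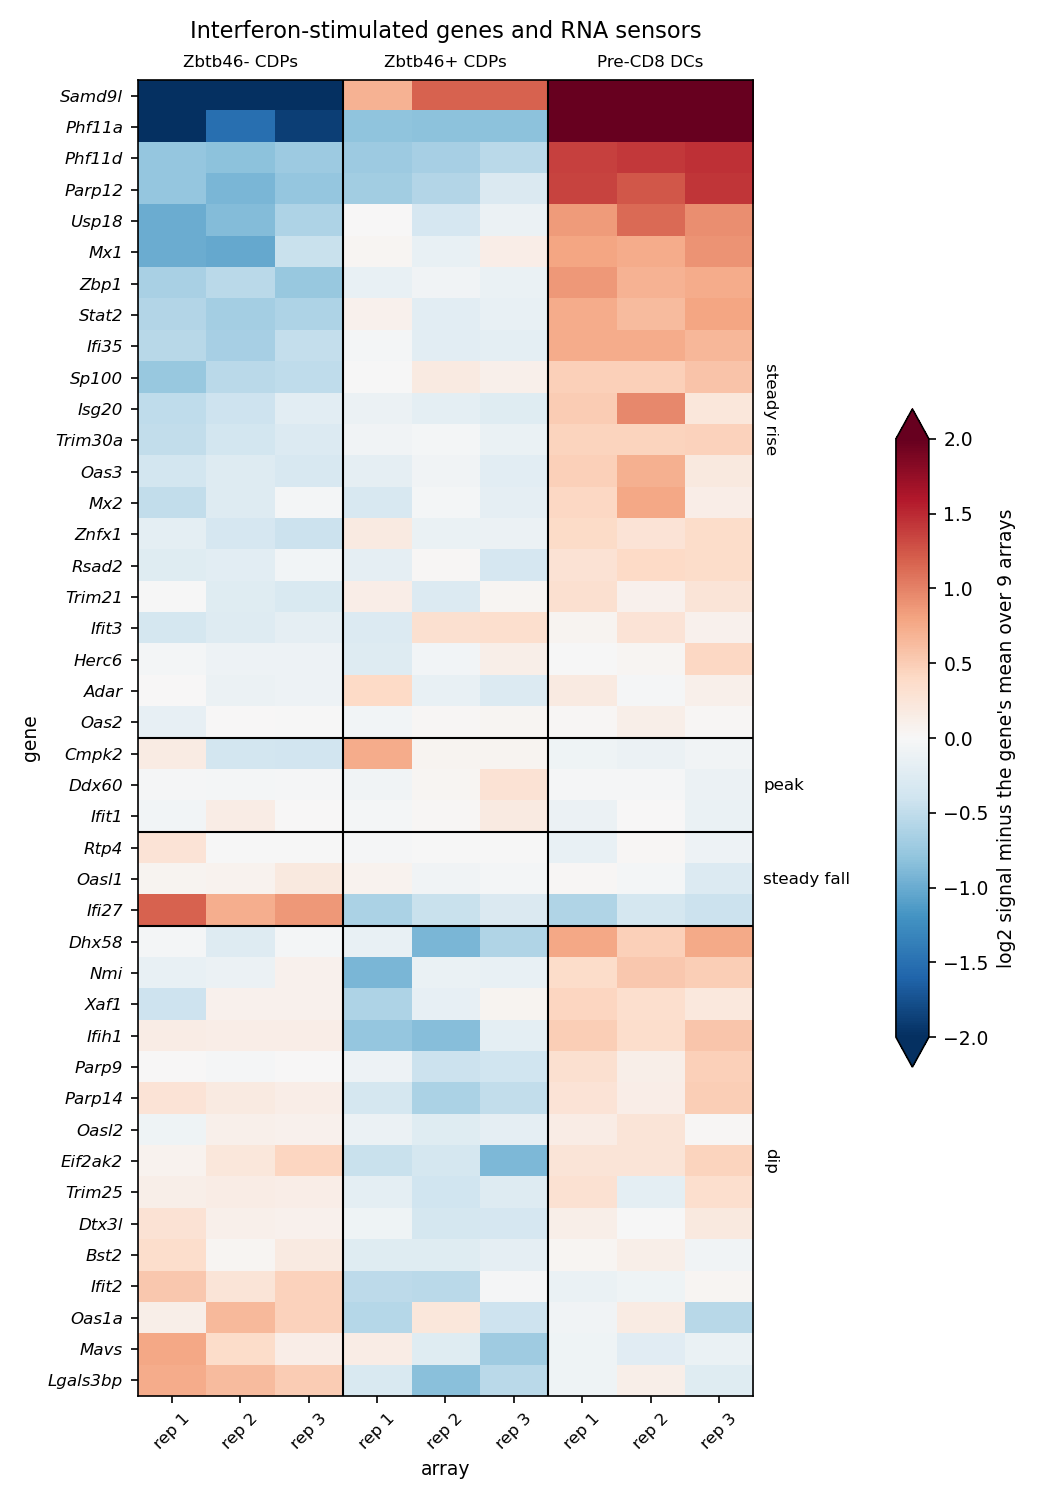
Colours give the log2 signal of each of the 42 measured members in each of the 9 arrays, minus the gene's mean over all arrays, with the colour scale ending at 2 in either direction. Rows are grouped by the order of the 3 group means. The 21 members with steadily rising means run from blue or pale in Zbtb46- CDPs to red in Pre-CD8 DCs, or stay near white where the rise is small, as in Oas2 and Adar. The 15 with the lowest mean in Zbtb46+ CDPs are bluest there, some of them, such as Lgals3bp and Mavs, being reddest in Zbtb46- CDPs.

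The arrays numbered 1 of both CDP groups stood apart from the other 7. Their log2 signal of Xist, a transcript of the inactive X chromosome in female cells, was 5.30 in Zbtb46+ CDPs and 5.59 in Zbtb46- CDPs, against 11.85 or more in every other array. The neutrophil granule gene Ngp was at 12.36 in the Zbtb46+ and 10.48 in the Zbtb46- array, against 5.39 to 8.54 in the others. The summed signal of 8 neutrophil markers ran from 15774.2 to 20485.7 in Zbtb46- CDPs, from 3780.1 to 27342.8 in Zbtb46+ CDPs and from 697.2 to 1720.9 in Pre-CD8 DCs. In Zbtb46- CDPs the brightest of the 8 were Mpo and Elane, with mean log2 signals of 13.63 and 11.35, and S100a9 followed at 8.61. Mpo was called lower at both steps and Elane at the second, while none of the other markers, Ngp among them, was called in any pairwise comparison. The sum is therefore not a measure of neutrophil content. The part of the arrays numbered 1 in the results was not tested beyond leaving them out. Without both, every member called higher or lower at either step kept its call, and the counts grew: 13 members were higher and 12 lower at the first step, and 26 were higher at the second. The shares of all genes grew as well, to 8.71% higher and 13.8% lower at the first step and 12.5% higher at the second. Array medians of all probe sets ran from 110.2 to 118.0 on the linear scale, and precision is limited by the 3 arrays of each group. Levels below are log2 of the deposited RMA signal. The files hold no detection call, so for a level near or under 6.82, the median log2 signal of the table, expression above background was not shown, and a difference that starts from such a level may understate the change.

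All 9 members called higher at the first step were called higher at the second as well: Samd9l, Phf11a, Usp18, Mx1, Zbp1, Stat2, Ifi35, Sp100 and Trim30a. Of all genes, 0.948% were called higher at both steps. Samd9l, a restriction factor that limits viral translation and cell growth, had the widest range of any member: 6.96, 6.06 and 6.29 in Zbtb46- CDPs, 10.34, 10.82 and 10.83 in Zbtb46+ CDPs and 11.83, 11.81 and 11.89 in Pre-CD8 DCs. The 3 groups do not overlap, and most of the rise lay in the first step, at 4.23 (SE 0.22, adjusted p = 1.06e-05), with 1.18 (SE 0.22, adjusted p = 0.0139) in the second. Over the whole span Samd9l was 42.3-fold higher in Pre-CD8 DCs, from a level in Zbtb46- CDPs near the table median. Its direct contrast, Zbtb46+ CDPs minus the mean of the 2 other groups, was 1.53 (adjusted p = 0.00304), the only member called above that mean.

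Phf11a, which encodes a PHD finger protein of an interferon-induced family, rose in the opposite proportion. It stood at 6.32, 6.80 and 6.43 in Zbtb46- CDPs, 7.50, 7.49 and 7.49 in Zbtb46+ CDPs and 10.97, 10.74 and 11.07 in Pre-CD8 DCs. The second step, 3.43 (SE 0.13, adjusted p = 2.23e-06), exceeded the first, 0.98 (SE 0.13, adjusted p = 0.00144), and its contrast against the mean of the other groups was -1.23 (adjusted p = 0.00134). The whole-span differences of Samd9l and Phf11a, 5.40 and 4.41, were thus reached mainly at different steps.

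Stat2, a subunit of the activating complex, read 8.995, 8.90 and 8.95 in Zbtb46- CDPs, 9.67, 9.36 and 9.43 in Zbtb46+ CDPs and 10.31, 10.20 and 10.36 in Pre-CD8 DCs. Usp18, which removes Isg15 from proteins and damps signalling at the receptor, read 7.30, 7.42 and 7.68 in Zbtb46- CDPs, 8.30, 7.96 and 8.17 in Zbtb46+ CDPs and 9.15, 9.43 and 9.22 in Pre-CD8 DCs. Neither gene's groups overlap; Stat2 rose by 0.53 and 0.81 at the 2 steps (adjusted p = 0.00514 and 0.00112) and Usp18 by 0.68 and 1.12 (adjusted p = 0.00736 and 0.00107). An activator of the pathway and one of its main brakes rose side by side.

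Mx1, a dynamin-like GTPase that blocks influenza and related viruses, had 6.52, 6.49 and 7.06 in Zbtb46- CDPs, 7.54, 7.36 and 7.63 in Zbtb46+ CDPs and 8.29, 8.24 and 8.40 in Pre-CD8 DCs, with near-equal steps of 0.82 and 0.80 (adjusted p = 0.00647 and 0.0146). Ifi35, which pairs with Nmi, had 8.77, 8.66 and 8.86 in Zbtb46- CDPs, 9.28, 9.12 and 9.13 in Zbtb46+ CDPs and 10.08, 10.07 and 10.001 in Pre-CD8 DCs and rose by 0.42 and 0.87 (adjusted p = 0.00752 and 0.000298). In both genes the lowest array of each later population lay above the highest of the one before it.

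Sp100, a scaffold of PML nuclear bodies, was already bright in Zbtb46- CDPs at 10.47, 10.70 and 10.74 and reached 11.22, 11.43 and 11.34 in Zbtb46+ CDPs and 11.72, 11.72 and 11.81 in Pre-CD8 DCs. It rose by 0.69 (adjusted p = 0.0013) at the first step and 0.42 (adjusted p = 0.0262) at the second. Trim30a, a tripartite-motif protein known in mice to restrain Toll-like receptor signalling, read 10.55, 10.69 and 10.78 in Zbtb46- CDPs, 10.97, 11.01 and 10.92 in Zbtb46+ CDPs and 11.50, 11.50 and 11.51 in Pre-CD8 DCs, with the 3 Pre-CD8 arrays closely grouped. Its first step was the smallest of the 9, 0.30 (SE 0.074, adjusted p = 0.0275), and lost its call with the replicate number as a block among the CDP arrays alone (adjusted p = 0.0796); the second was 0.54 (adjusted p = 0.00329). Without replicate 1 of the Pre-CD8 DCs the members higher at both steps numbered 5 in place of 9 (Stat2, Usp18, Phf11a, Ifi35 and Zbp1), since Samd9l, Mx1 and Sp100 lost the second call and Trim30a the first. Members higher at the second step then numbered 12 in place of 20. The second call of Samd9l was also lost without replicate 3 of the Pre-CD8 DCs (highest adjusted p = 0.0635), and that of Mx1 without that array or replicate 2 of the Zbtb46+ CDPs (highest adjusted p = 0.0686). Sp100 lost its second call without any 1 of the Pre-CD8 arrays or replicate 3 of the Zbtb46+ CDPs (highest adjusted p = 0.105) and with quantile scaling (difference 0.29, adjusted p = 0.162). Trim30a lost its first call also without replicate 1 or 2 of the Zbtb46- CDPs or replicate 2 of the Zbtb46+ CDPs (highest adjusted p = 0.0811).

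**Figure D2:**
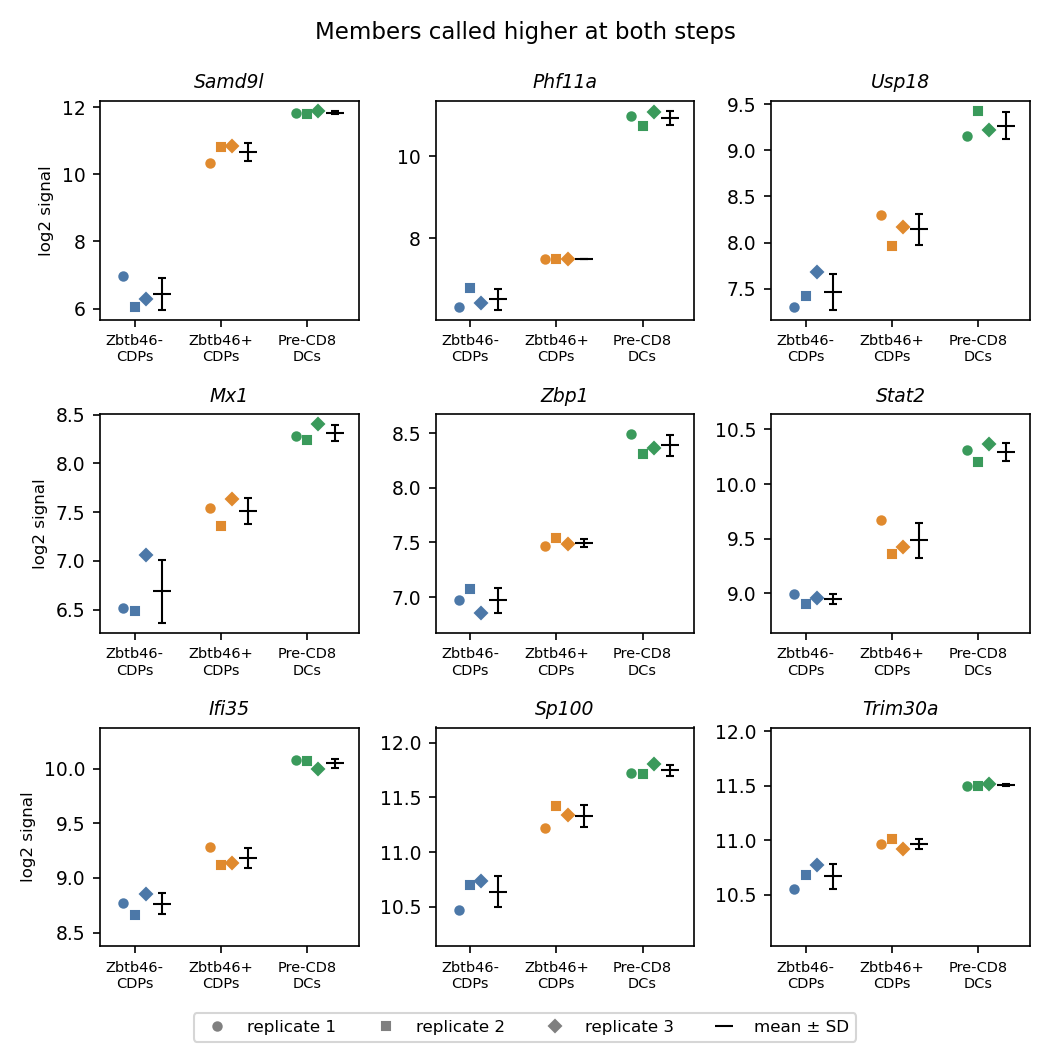
Each panel gives the log2 signal of 1 gene in each array, by population in developmental order, for the 9 members called higher at both steps; symbols mark the replicate number and the bars the mean ± SD of 3 arrays. Vertical axes differ between panels and span at least 2 log2 units; in every panel the 3 populations are separate, with Samd9l making most of its rise by the Zbtb46+ CDP stage and Phf11a after it.

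Another 8 members had no call at the first step and rose at the second. Phf11d, a relative of Phf11a and its neighbour on chromosome 14 with Phf11b between them, read 5.997, 5.94 and 6.03 in Zbtb46- CDPs, 6.04, 6.11 and 6.22 in Zbtb46+ CDPs and 8.13, 8.18 and 8.23 in Pre-CD8 DCs. It rose by 2.06 at the second step (SE 0.072, adjusted p = 1.3e-06), and since both CDP groups lay below the table median that value may understate the change. Cross-hybridisation between the probe sets of these relatives was not tested. Parp12, a mono-ADP-ribosyltransferase that restrains viral translation, read 7.26, 7.11 and 7.26 in Zbtb46- CDPs, 7.34, 7.45 and 7.74 in Zbtb46+ CDPs and 9.38, 9.27 and 9.45 in Pre-CD8 DCs. It rose 3.63-fold at the second step (log2 difference 1.86, SE 0.11, adjusted p = 2.1e-05), against a first-step difference of 0.30 (adjusted p = 0.11). Phf11d, Parp12 and Phf11a were the 3 steady risers called below the mean of the other 2 groups in Zbtb46+ CDPs (-0.96, -0.78 and -1.23), which here marks a late rise and not a dip.

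Isg20, Oas3 and Rsad2 rose less at the second step. Isg20, a 3′ to 5′ exonuclease, read 7.16, 7.27 and 7.46 in Zbtb46- CDPs, 7.55, 7.48 and 7.43 in Zbtb46+ CDPs and 8.18, 8.63 and 7.90 in Pre-CD8 DCs and rose by 0.75 (adjusted p = 0.0299). Oas3, an oligoadenylate synthetase, read 6.73, 6.84 and 6.77 in Zbtb46- CDPs, 6.92, 7.03 and 6.88 in Zbtb46+ CDPs and 7.58, 7.81 and 7.29 in Pre-CD8 DCs and rose by 0.62 (adjusted p = 0.0183). The CDP groups overlapped in Isg20 and not in Oas3, and in both genes every Pre-CD8 array lay above all CDP arrays. Rsad2, which encodes viperin and makes a chain-terminating nucleotide, rose by 0.52 (adjusted p = 0.0175). Rsad2 averaged 7.70 ± 0.056 in Pre-CD8 DCs against 7.19 ± 0.18 in Zbtb46+ CDPs (mean ± SD, n = 3). Its genomic neighbour Cmpk2, a mitochondrial nucleotide kinase that is often induced with it, was not called. Cmpk2 averaged 8.93 ± 0.021 in Pre-CD8 DCs and 9.30 ± 0.39 in Zbtb46+ CDPs (difference -0.37, adjusted p = 0.366). Replicate 1 was the highest array of both CDP groups, at 9.76 in Zbtb46+ CDPs and 9.18 in Zbtb46- CDPs. The first difference of Cmpk2, 0.47, was not called in the reported fit (adjusted p = 0.155). It was called with the replicate block among the CDP arrays alone (adjusted p = 0.0196). Without both CDP arrays numbered 1 it was called at 0.42 (adjusted p = 0.00311). In that fit the span (0.28, adjusted p = 0.00963) and the direct contrast (0.28, adjusted p = 0.0108) were called higher too, and the second step was not (adjusted p = 0.104). The calls of Isg20, Oas3 and Rsad2 were each lost without replicate 1 of the Pre-CD8 DCs. That of Isg20 was lost also without replicate 2 of either CDP group or replicate 3 of the Zbtb46+ CDPs (highest adjusted p = 0.0915), that of Oas3 without replicate 3 of the Zbtb46+ CDPs (highest adjusted p = 0.0714) and that of Rsad2 without either other Pre-CD8 array (highest adjusted p = 0.0704). The remaining 3 of the 8, Parp9, Nmi and Dhx58, had their lowest mean in Zbtb46+ CDPs and are described with the dips; Parp9 and Nmi lost the second-step call, and Dhx58 its call over the span, without that same array (adjusted p = 0.0586, 0.078 and 0.0643).

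The double-stranded RNA sensors Ifih1, Eif2ak2 and Dhx58 had their lowest mean in Zbtb46+ CDPs. Ifih1 encodes MDA5, the cytosolic sensor of long double-stranded RNA. Its signal was 7.75, 7.74 and 7.74 in Zbtb46- CDPs, 6.83, 6.76 and 7.40 in Zbtb46+ CDPs and 8.10, 7.96 and 8.16 in Pre-CD8 DCs. No Zbtb46+ array reached the lowest array of either other group. Ifih1 fell by 0.75 in Zbtb46+ CDPs (SE 0.15, adjusted p = 0.0114), rose by 1.08 in Pre-CD8 DCs (SE 0.15, adjusted p = 0.00366) and differed by 0.33 over the whole span (adjusted p = 0.226).

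Eif2ak2 encodes PKR, the kinase that stops translation when it binds double-stranded RNA. It read 7.27, 7.42 and 7.62 in Zbtb46- CDPs, 6.74, 6.84 and 6.30 in Zbtb46+ CDPs and 7.44, 7.45 and 7.64 in Pre-CD8 DCs, with the Zbtb46+ arrays again below all others. The fall was -0.81 (SE 0.15, adjusted p = 0.0068) and the rise 0.89 (SE 0.15, adjusted p = 0.00839), which left a whole-span difference of 0.078 (adjusted p = 0.857).

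Dhx58 encodes LGP2, the relative of MDA5 that lacks the signalling domains and modulates it. Its levels were 8.03, 7.81 and 8.03 in Zbtb46- CDPs, 7.91, 7.16 and 7.46 in Zbtb46+ CDPs and 8.84, 8.54 and 8.83 in Pre-CD8 DCs. Replicate 1 of the Zbtb46+ CDPs overlapped the Zbtb46- CDPs, and the first difference of -0.45 was not called (adjusted p = 0.131). It was called with the replicate number as a block over all arrays (adjusted p = 0.0355), not with the block among the CDP arrays alone (adjusted p = 0.0732), and it was -0.61 without both CDP arrays numbered 1 (adjusted p = 0.0226). The block over all arrays also pairs Pre-CD8 arrays with CDP arrays by number, and that pairing was not shown. The second step was called at 1.23 (adjusted p = 0.004), and Dhx58 ended 0.78 above Zbtb46- CDPs (adjusted p = 0.0154), a call lost without replicate 2 of the Zbtb46- CDPs or replicate 1 or 3 of the Pre-CD8 DCs (highest adjusted p = 0.0658). Ddx58, which encodes the third of these helicases, RIG-I, is not among the members and was at 5.96 in all 3 arrays of the Zbtb46- CDPs, 5.86 ± 0.087 in Zbtb46+ CDPs and 6.004 ± 0.051 in Pre-CD8 DCs, below the table median throughout.

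Mavs, the mitochondrial adaptor through which MDA5 and RIG-I signal, had a lower mean in both later populations than in Zbtb46- CDPs. It read 8.79, 8.39 and 8.15 in Zbtb46- CDPs, 8.16, 7.78 and 7.31 in Zbtb46+ CDPs and 7.93, 7.79 and 7.88 in Pre-CD8 DCs. In both CDP groups replicate 1 was highest and replicate 3 lowest. The first difference of -0.70 was not called (adjusted p = 0.0631), but was called with the replicate block over all arrays (adjusted p = 0.0156) and among the CDP arrays alone (adjusted p = 0.00987). The second difference, 0.12, was not called in either fit over all arrays (adjusted p = 0.812 and, with the block, 0.678). The span difference of -0.58 was called with the block (adjusted p = 0.0291) and not without it (adjusted p = 0.123).

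Of the 7 sensor genes, the other 3 showed no dip. Zbp1, which senses nucleic acid in the Z conformation and can trigger necroptosis, read 6.97, 7.08 and 6.85 in Zbtb46- CDPs, 7.47, 7.54 and 7.48 in Zbtb46+ CDPs and 8.49, 8.31 and 8.36 in Pre-CD8 DCs, and rose by 0.53 and 0.89 (adjusted p = 0.00291 and 0.000328). Znfx1, a helicase-like RNA sensor of mitochondria, read 8.47, 8.33 and 8.25 in Zbtb46- CDPs, 8.85, 8.53 and 8.56 in Zbtb46+ CDPs and 9.05, 8.94 and 9.03 in Pre-CD8 DCs. Neither step of Znfx1 was called (0.30 and 0.36, adjusted p = 0.0891 and 0.0749), while the whole span was (0.66, adjusted p = 0.00204). With the replicate block over all arrays both steps were called (adjusted p = 0.0458 and 0.0409), the second through the pairing of Pre-CD8 arrays that was not shown. Adar, the deaminase that edits double-stranded RNA and so shields self RNA from MDA5, read 9.73, 9.61 and 9.63 in Zbtb46- CDPs, 10.12, 9.58 and 9.45 in Zbtb46+ CDPs and 9.90, 9.70 and 9.83 in Pre-CD8 DCs. No comparison of Adar was called (0.060, 0.10 and 0.16 for the 2 steps and the span), and its Zbtb46+ arrays spanned both other groups.

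**Figure D3:**
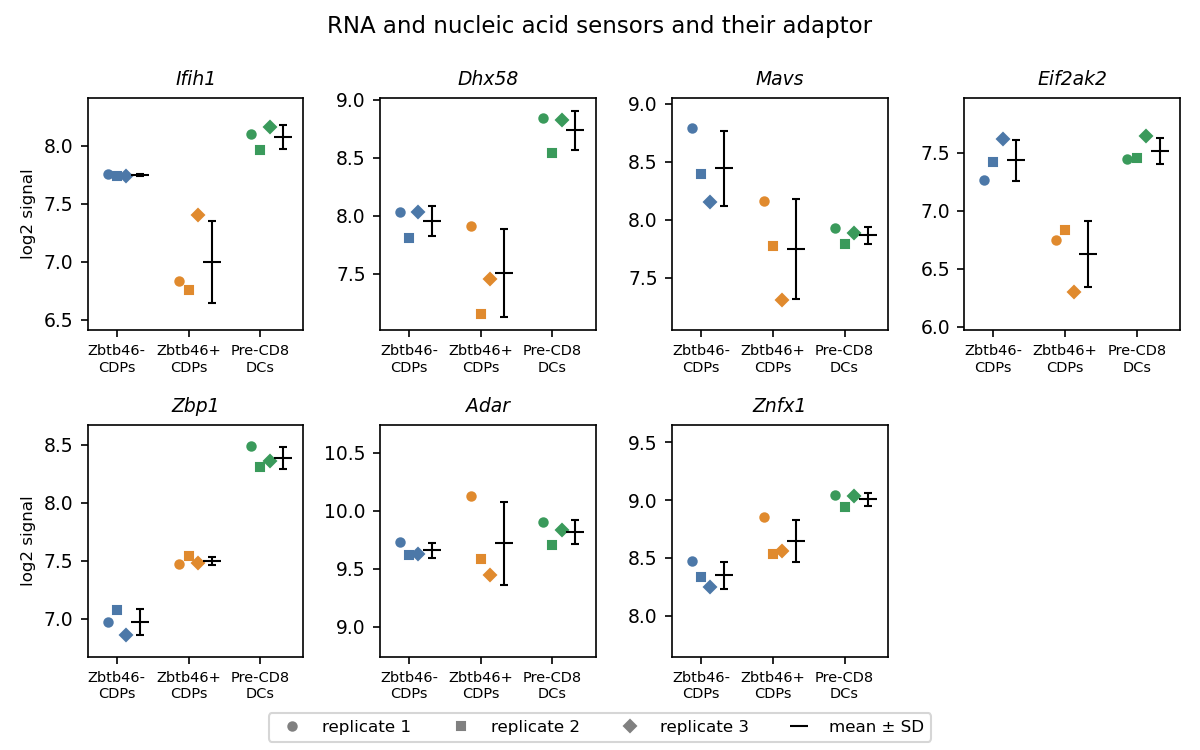
Log2 signal in each array of the 7 sensor genes, among them the adaptor Mavs, by population in developmental order; symbols mark the replicate number and bars the mean ± SD of 3 arrays. Vertical axes differ and span at least 2 log2 units: Ifih1, Dhx58 and Eif2ak2 are lowest in Zbtb46+ CDPs, Zbp1 and Znfx1 climb, Mavs is highest in Zbtb46- CDPs, and Adar overlaps throughout.

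The Parp14, Dtx3l and Parp9 genes lie next to each other on chromosome 16, and all 3 were lowest in Zbtb46+ CDPs. Parp9 and Dtx3l encode partners in a ubiquitin ligase that modifies histones, and Parp14 is a mono-ADP-ribosyltransferase. Parp14 read 8.11, 8.01 and 7.97 in Zbtb46- CDPs, 7.49, 7.20 and 7.34 in Zbtb46+ CDPs and 8.10, 7.97 and 8.33 in Pre-CD8 DCs. It is the third member with a called dip, with a fall of -0.68 (SE 0.11, adjusted p = 0.00368), a rise of 0.79 (SE 0.11, adjusted p = 0.00339) and a span of 0.11 (adjusted p = 0.691).

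Dtx3l read 9.19, 8.998 and 8.99 in Zbtb46- CDPs, 8.81, 8.54 and 8.57 in Zbtb46+ CDPs and 9.01, 8.89 and 9.09 in Pre-CD8 DCs. Its fall of -0.42 was called (adjusted p = 0.022), and its rise of 0.36 was not (adjusted p = 0.0696) except with the replicate block (adjusted p = 0.045). Parp9 read 6.96, 6.92 and 6.96 in Zbtb46- CDPs, 6.85, 6.52 and 6.54 in Zbtb46+ CDPs and 7.27, 7.07 and 7.43 in Pre-CD8 DCs, where the rise of 0.62 was called (adjusted p = 0.0139) and the first difference of -0.31 was not (adjusted p = 0.112). In all 3 genes the Zbtb46+ arrays lay below every array of the other 2 groups, and replicate 1 was the highest of the Zbtb46+ CDPs. The call of Dtx3l was lost without replicate 1 or 3 of the Zbtb46- CDPs or replicate 2 or 3 of the Zbtb46+ CDPs (highest adjusted p = 0.078), and that of Parp9 without replicate 2 of the Zbtb46+ CDPs or replicate 1 or 3 of the Pre-CD8 DCs (highest adjusted p = 0.0588).

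Members called lower and then higher thus numbered 3, Parp14, Ifih1 and Eif2ak2, or 7.14% of the 42, where 1.54% of all genes had both calls. With the replicate number as a block over all arrays there were 5, with Dtx3l and Dhx58 added. That count rests on a pairing of the Pre-CD8 arrays by number that was not shown. Without replicate 1 of the Zbtb46+ CDPs there were 7, with Parp9 and Lgals3bp added to those 5, and without both CDP arrays numbered 1 there were 8, with Oasl2 added. Calls over all genes grew as well. Genes lower at the first step numbered 2451, 3269 and 2758 in these fits, in the same order, against 2105 as reported. Genes higher at the second step numbered 997, 1804 and 2496, against 949. The share of all genes with a dip was not counted in these fits, so the growth is not read as a result about the members. The direct contrast of Zbtb46+ CDPs against the mean of both other groups called 13 members below it (6.26% of all genes) and 1 above (1.36%). Of these 13, 9 had a dip by group means, 3 were the late risers above, and the last was Ifi27. With the replicate block the contrast called 14: Bst2 lost its call (adjusted p = 0.0376 as reported, 0.0529 with the block), and Trim25 and Nmi gained one (adjusted p = 0.0617 and 0.0619 as reported, 0.0415 and 0.0325 with the block).

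The summed signal of monocyte markers and that of progenitor markers were lowest in Zbtb46+ CDPs, while single markers went in different directions. For monocytes, with 6 of 8 markers measured, the summed linear signal was 6712.2 to 7451.2 in Zbtb46- CDPs, 4781.1 to 5443.5 in Zbtb46+ CDPs and 5490.6 to 6371.7 in Pre-CD8 DCs. At the first step F13a1 and Cd14 were lower and Ccr2 higher, and at the second F13a1 and Cd14 were lower again and Ccr2 and Lyz2 higher. By the direct contrast, 0 monocyte markers were called below the mean of the other groups and 1, F13a1, above it. For the 5 progenitor markers the summed linear signal was 7280.4 to 7804.0 in Zbtb46- CDPs, 5389.6 to 7116.9 in Zbtb46+ CDPs and 7435.9 to 7547.0 in Pre-CD8 DCs. Flt3 fell at the first step (-0.49, adjusted p = 0.0243) and rose at the second (0.59, adjusted p = 0.02), while Csf1r fell at both (-0.91 and -2.74, adjusted p = 0.000307 and 8.07e-07). Csf2ra was called higher and Sox4 lower at the first step (0.73 and -1.16, limma adjusted p = 0.0132 and 0.00558), and Kit higher at the second (0.90, adjusted p = 0.00423). The part of these markers in the dips was not tested.

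**Figure D4:**
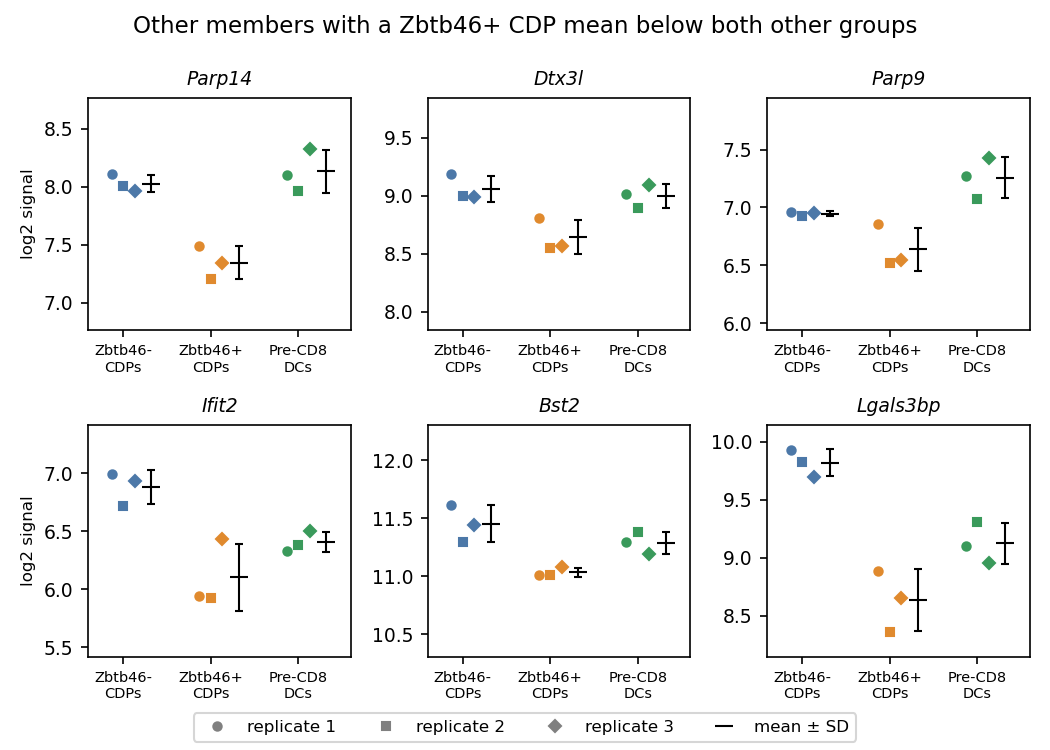
Log2 signal in each array of 6 further members whose Zbtb46+ CDP mean is the lowest of the 3 populations: the neighbours Parp14, Dtx3l and Parp9 in the upper row, and Ifit2, Bst2 and Lgals3bp, which fell at the first step, in the lower row. Symbols mark the replicate number, bars the mean ± SD of 3 arrays, and each vertical axis spans at least 2 log2 units. The upper row is back near or above the Zbtb46- CDP level in Pre-CD8 DCs, while the means of Lgals3bp, Ifit2 and, by less, Bst2 stay below it.

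A further 4 members were called lower at the first step and not called at the second, besides Dtx3l. Ifi27, a small hydrophobic protein of mitochondria and the nuclear envelope, fell the most of any member. It read 9.46, 9.004 and 9.14 in Zbtb46- CDPs, 7.64, 7.83 and 7.99 in Zbtb46+ CDPs and 7.67, 7.92 and 7.85 in Pre-CD8 DCs. The fall of -1.38 (SE 0.13, adjusted p = 0.000295) was followed by no detectable change (-0.0061, adjusted p = 0.986), and Ifi27 was -1.39 over the span (adjusted p = 0.000112).

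Lgals3bp, a secreted glycoprotein that binds galectin, read 9.93, 9.82 and 9.70 in Zbtb46- CDPs, 8.89, 8.36 and 8.65 in Zbtb46+ CDPs and 9.10, 9.31 and 8.95 in Pre-CD8 DCs. It fell by 1.18 at the first step (adjusted p = 0.000853) and remained lower over the span (-0.70, adjusted p = 0.00949), and the second difference of 0.49 was not called (adjusted p = 0.0844). Ifi27 and Lgals3bp were the 2 members called lower in Pre-CD8 DCs against Zbtb46- CDPs.

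Ifit2, which encodes an RNA-binding tetratricopeptide protein that blocks translation, read 6.996, 6.72 and 6.93 in Zbtb46- CDPs, 5.95, 5.93 and 6.44 in Zbtb46+ CDPs and 6.33, 6.38 and 6.51 in Pre-CD8 DCs. It fell by 0.78 at the first step (adjusted p = 0.00626), towards levels under the table median, and its difference over the span, -0.48, was not called (adjusted p = 0.051) except with the replicate block (adjusted p = 0.0251). Bst2, or tetherin, which holds budding virions and is also a surface marker of plasmacytoid DCs, was bright in every array: 11.62, 11.30 and 11.45 in Zbtb46- CDPs, 11.02, 11.01 and 11.08 in Zbtb46+ CDPs and 11.30, 11.38 and 11.19 in Pre-CD8 DCs. Its fall of -0.42 was called (adjusted p = 0.0164) but not without replicate 3 of the Zbtb46- CDPs or replicate 2 of the Zbtb46+ CDPs (highest adjusted p = 0.0562), and the second difference of 0.25 was not (adjusted p = 0.166).

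Since Bst2 also marks plasmacytoid DCs, other markers of these cells are given beside it. Of 9 markers, 7 were measured, and their summed linear signal was 1754.2 to 2404.5 in Zbtb46- CDPs, 1478.0 to 1793.9 in Zbtb46+ CDPs and 1396.7 to 1593.3 in Pre-CD8 DCs, with 3, 3 and 2 of the 7 below the table median in the same order. None of the 7 was called at the first step and 1, Ccr9, which rose, at the second, while Siglech, Tcf4 and Cox6a2 were lower over the span. The part of such cells in the difference of Bst2 was not tested. In bulk samples, fewer cells of a type and less RNA per cell cannot be told apart. The labels were set against 8 cDC1 markers, whose summed linear signal was 6995.9 to 7947.7 in Zbtb46- CDPs, 11530.6 to 15266.5 in Zbtb46+ CDPs and 23776.9 to 25509.1 in Pre-CD8 DCs, and 7 of the 8 were called higher at the second step. All 5 progenitor markers were above the table median in every group.

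The 2 differences of each member are set against each other in the plot of both steps. All 9 first-step risers lie in the upper right. The 8 members called lower at the first step had second-step differences of -0.0061 to 1.08, and of these Ifi27 alone was not above 0.

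**Figure D5:**
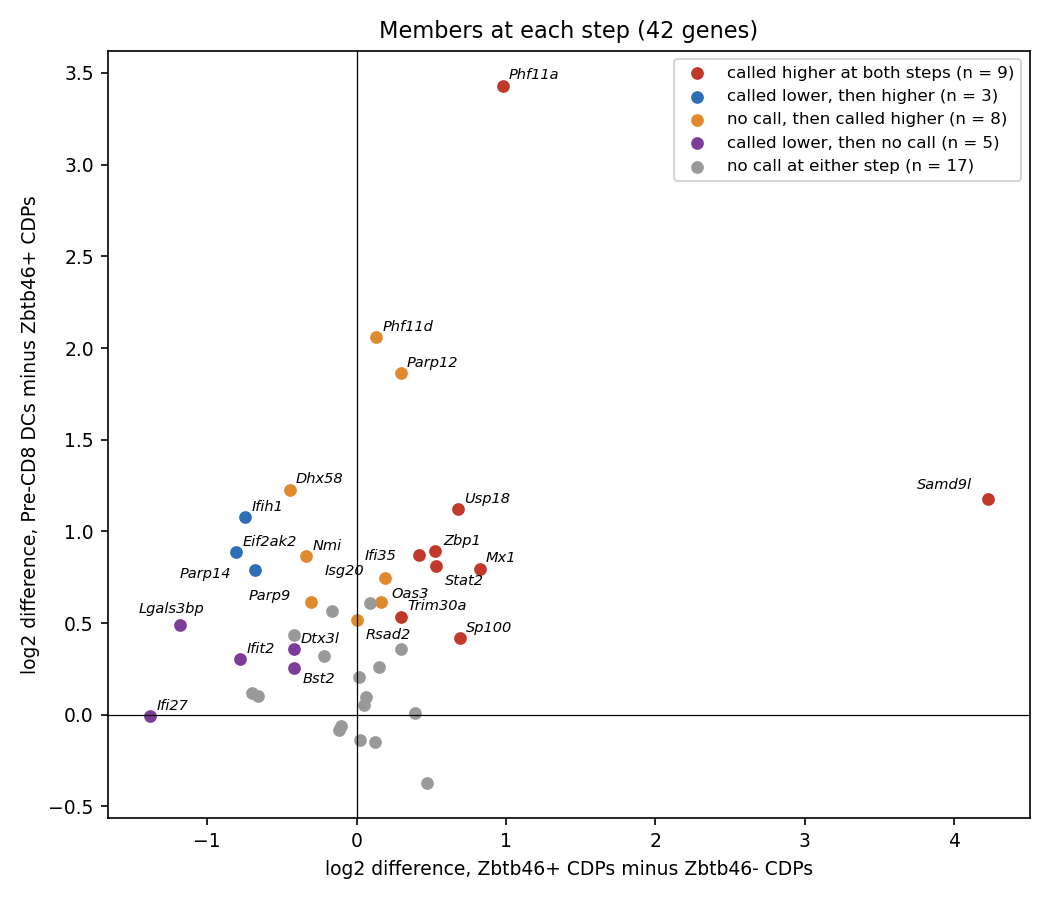
Each point is 1 of the 42 measured members, placed by its log2 difference between Zbtb46+ CDPs and Zbtb46- CDPs (horizontal) and between Pre-CD8 DCs and Zbtb46+ CDPs (vertical), and coloured by the calls at the first and second step. Of the members, 36 lie above 0 on the vertical axis; since both axes use the Zbtb46+ arrays, their slope is not read as a relation.

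The 17 members with no call at either step included Ifit1, Ifit3 and most of the oligoadenylate synthetase family. Mx2, a relative of Mx1, was called over the span alone beside Znfx1, at 6.94 ± 0.32 in Pre-CD8 DCs against 6.24 ± 0.23 in Zbtb46- CDPs (difference 0.70, adjusted p = 0.022), and lost that call without both CDP arrays numbered 1 (adjusted p = 0.0551) and without replicate 1 or 2 of the Zbtb46- CDPs or of the Pre-CD8 DCs (highest adjusted p = 0.0834). Ifit1, Ifit3, Ddx60, an RIG-I cofactor, and Rtp4, a receptor chaperone, had all 3 group means under the table median, so the reported fit showed neither expression nor a change for them. From these dim levels, the first step of Ifit3 was called without replicate 1 of the Zbtb46+ CDPs (0.59, adjusted p = 0.00229). It was called also without both CDP arrays numbered 1 (0.55, adjusted p = 0.00523), and so was the span in both fits (adjusted p = 0.00652 and 0.0179). Ifit1 averaged 5.18 ± 0.10 in Zbtb46- CDPs, 5.21 ± 0.11 in Zbtb46+ CDPs and 5.07 ± 0.076 in Pre-CD8 DCs, and Ddx60 4.77 ± 0.0035 in Zbtb46- CDPs, 4.89 ± 0.18 in Zbtb46+ CDPs and 4.74 ± 0.048 in Pre-CD8 DCs. Ifit2 and Ifit3, which lie side by side on chromosome 19, differed in their first-step values, -0.78 for Ifit2 and 0.39 for Ifit3 (adjusted p = 0.00626 and 0.137); the difference between the genes was not tested.

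The oligoadenylate synthetase family, whose products activate a latent RNase, was uneven. Oas3 was its only called member. Its neighbour Oas2 read 6.68, 6.87 and 6.85 in Zbtb46- CDPs, 6.80, 6.87 and 6.89 in Zbtb46+ CDPs and 6.87, 6.97 and 6.87 in Pre-CD8 DCs, with differences of 0.052 and 0.053 at the 2 steps and overlap between Zbtb46+ CDPs and each other group. Oas1a read 7.63, 8.15 and 7.96 in Zbtb46- CDPs, 6.93, 7.73 and 7.09 in Zbtb46+ CDPs and 7.44, 7.66 and 6.96 in Pre-CD8 DCs, where replicate 2 was highest in each CDP group. The first difference of -0.66 was not called (adjusted p = 0.109) except with the replicate block over all arrays (adjusted p = 0.0273) or among the CDP arrays alone (adjusted p = 0.0202), and the span difference of -0.56 was called with the block alone (adjusted p = 0.0475). Oasl1, known in mice to restrain translation of Irf7, differed by -0.20 over the span (adjusted p = 0.225), and its neighbour Oasl2 by -0.22 and 0.32 at the 2 steps (adjusted p = 0.13 and 0.0609).

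Among ubiquitin ligases, Trim25, which activates RIG-I, had 9.36, 9.38 and 9.38 in Zbtb46- CDPs, 9.05, 8.84 and 8.98 in Zbtb46+ CDPs and 9.54, 9.04 and 9.57 in Pre-CD8 DCs. Its first difference of -0.42 missed the threshold (adjusted p = 0.0722) and passed with the replicate block over all arrays (adjusted p = 0.0438) and among the CDP arrays alone (adjusted p = 0.0303). Trim21, the cytosolic antibody receptor, and Herc6, the mouse ligase for Isg15, were not called in any pairwise comparison, with span differences of 0.41 and 0.22 (adjusted p = 0.0614 and 0.375); with the replicate block that of Trim21 was called (adjusted p = 0.0166). Nmi, the partner of Ifi35, read 9.43, 9.45 and 9.66 in Zbtb46- CDPs, 8.66, 9.44 and 9.42 in Zbtb46+ CDPs, where replicate 1 stood well below the others, and 9.94, 10.11 and 10.06 in Pre-CD8 DCs. Nmi rose by 0.86 at the second step (adjusted p = 0.029), a call lost without any 1 of the Pre-CD8 arrays (highest adjusted p = 0.105) and with quantile scaling (adjusted p = 0.0935). Xaf1, which promotes cell death, averaged 6.95 ± 0.29 in Zbtb46- CDPs, 6.79 ± 0.34 in Zbtb46+ CDPs and 7.35 ± 0.11 in Pre-CD8 DCs without a call.

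Genes of the surrounding pathway were taken from a list of 31 for sensing and signalling, of which 27 were measured. In Zbtb46+ CDPs against Zbtb46- CDPs, 6 were higher and 4 lower (Ifnar1, Il10rb, Ikbke and Tlr7), where 3.85% and 10.6% of all genes were called. In Pre-CD8 DCs against Zbtb46+ CDPs, 8 were higher and 1, Ikbke, lower, where 4.76% and 1.86% of all genes were called. The list's median log2 differences at the 2 steps were -0.10 and 0.24, beside 0.037 and -0.034 over all genes. Irf7, the amplifier of the interferon response, rose at both steps, by 1.24 and 1.95 (adjusted p = 0.000195 and 1.65e-05). Tlr3, the endosomal sensor of double-stranded RNA and also one of the cDC1 markers, averaged 5.91 ± 0.23 in Zbtb46- CDPs, 7.95 ± 0.23 in Zbtb46+ CDPs and 11.49 ± 0.020 in Pre-CD8 DCs and was called higher at both steps (adjusted p = 4.12e-05 and 2.35e-06). The receptor kinase Tyk2 rose by 0.64 and 0.72 and Irf9, the DNA-binding part of the activating complex, by 0.34 and 0.38, all 4 called (adjusted p = 0.0266, 0.0288, 0.0129 and 0.0155). Ifnar1, a receptor chain for type I interferon, shared the shape of the dipping members: it averaged 9.55 ± 0.084 in Zbtb46- CDPs, 9.001 ± 0.11 in Zbtb46+ CDPs and 9.50 ± 0.29 in Pre-CD8 DCs, with a called fall of -0.54 (adjusted p = 0.0274) and a second difference of 0.50 that was not called (adjusted p = 0.0636). Ifnar2 and Jak1 were not called at either step. Ikbke, a kinase that activates interferon regulatory factors, fell at both steps, with differences of -0.62 and -0.47 (adjusted p = 0.00441 and 0.0287).

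Of 21 interferon genes, 16 were measured and none was called in any of the 3 comparisons with limma; at an unadjusted p under 0.05 there was 1 at the first step, with 0 at the second and 0 over the span. In 9 of the 16, every array lay under the table median. The brightest were Ifna5, at 8.57 ± 0.26 in Zbtb46- CDPs, 8.86 ± 0.28 in Zbtb46+ CDPs and 8.61 ± 0.16 in Pre-CD8 DCs, and Ifnl2, at 8.36 ± 0.17 in Zbtb46- CDPs, 8.58 ± 0.16 in Zbtb46+ CDPs and 8.55 ± 0.13 in Pre-CD8 DCs. Without a detection call these levels do not show that either gene was expressed, and cross-hybridisation between probe sets of interferon genes was not tested. Ifnb1 averaged 5.93 ± 0.071 in Zbtb46- CDPs, 6.05 ± 0.10 in Zbtb46+ CDPs and 5.98 ± 0.034 in Pre-CD8 DCs.

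A second list held 42 other interferon-induced genes, of which 33 were measured. At the first step 3 were higher (Samhd1, Shisa5 and Ifi30) and 6 lower, where 3.85% and 10.6% of all genes were called. At the second 11 were higher and 2, Ifitm1 and Ifitm2, lower, where 4.76% and 1.86% of all genes were called. The list's median log2 differences were 0.0058 and 0.32, beside 0.037 and -0.034 over all genes. Samhd1, which depletes nucleotides, rose at both steps (0.75 and 0.52, adjusted p = 0.00154 and 0.018), as the 9 steady members did, and Phf11c rose at the second step (1.498, adjusted p = 0.000234) as did Phf11a and Phf11d. Ifitm3, which blocks viral fusion, fell and then rose (-0.59 and 1.005, adjusted p = 0.00476 and 0.000506), and so did Trim12a (-0.41 and 0.81, adjusted p = 0.0114 and 0.000595) and Tor3a (-0.64 and 0.43, adjusted p = 0.00151 and 0.0182). Its relatives Ifitm1 and Ifitm2 fell at both steps (-0.98 and -0.55 for Ifitm1, -1.16 and -0.69 for Ifitm2). Among the 33, the rise at both steps was thus called for Samhd1 alone and the dip for Ifitm3, Trim12a and Tor3a alone. Of all genes, 0.948% had the former and 1.54% the latter. The list was chosen with earlier results of these data known, so it is not independent support for either shape.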

How the data were processed

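Per the labels' protocols, total RNA was labelled with the Affymetrix WT Pico kit. Per the submitters' processing notes, the authors summarised the arrays with RMA in Affymetrix Expression Console (version not given in the sources used here). The deposited values are signal intensity per probe set on a linear scale (7.45 to 20455.6), so log2 was taken and nothing else was rescaled. RMA compresses differences of dim genes. Of 28853 probe sets, 21789 had 1 symbol in the platform annotation, 1621 several and 5443 none listed; of several for a gene the brightest was kept (19938 genes, 999 with a choice). No dim genes were filtered. Group means of all 9 arrays were fitted with limma 3.58.1 in R 4.3.3 (lmFit, eBayes), and a difference was called where its Benjamini-Hochberg adjusted p fell below 0.05. Residual SDs had a median of 0.14 (log2).

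The members and lists were chosen with earlier results of these data known. Every array is given for called members with the largest differences, all members called at both steps and all sensors. Every array of Dtx3l, Parp9, Bst2, Isg20, Oas3, Oas1a, Oas2, Nmi and Trim25, and arrays of Cmpk2, Xist and Ngp, were added after their values were seen. Replicate numbers come from the titles. For pairs of CDP arrays with the same number, deviations from the group means had correlations of 0.51, 0.42 and 0.36; for Pre-CD8 arrays they were 0.11, 0.073 and 0.17 with Zbtb46+ arrays and -0.011, -0.026 and 0.028 with Zbtb46- arrays. For CDP arrays with different numbers they ran from -0.51 to 0.38, the highest for replicate 3 of the Zbtb46- CDPs with replicate 2 of the Zbtb46+ CDPs. The CDP arrays numbered 1 therefore go together, while a pairing of those numbered 2 and 3 was not shown. No pairing of Pre-CD8 arrays with CDP arrays by number was shown either. Calls at the second step or over the span that need the block rest on that pairing. Blocked values are given where they change a call. In a simulation of the design with 19938 genes, dips of 0.5, 1 and 2 log2 units were called at both steps in 27 of 67, 56 of 67 and 65 of 66 genes. The simulated arrays were independent, with the same spread in every group and no array standing apart, so these rates may not hold for the real arrays. Promoters are from RefSeq (GRCm38.p6). Figures were drawn with Python 3.11.15 and matplotlib 3.10.9.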

Additional observations from a re-analysis of the deposited data

How the results depend on the processing

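Of 56 called results of single members over the 3 pairwise comparisons, 42 kept their call under all settings run for them and 0 changed sign. The settings were 2 other scalings, a filter on dim genes, probe sets averaged per gene, the replicate block, moderation with an intensity trend, 2-group fits, a stricter threshold, each array left out, and both CDP arrays numbered 1 left out; the block among CDP arrays alone was added after seeing the data. At an adjusted p under 0.01 the counts were 5 members lower at the first step (8 as reported), 12 higher at the second (20), 5 higher at both (9) and 7 below the mean of the other groups (13). With the replicate block, 5 members had a called dip (3 as reported) and 5 were lower in Pre-CD8 DCs than in Zbtb46- CDPs (2), or 4 with 2 groups in the fit. The block changed no call of a member at either step, over the span or in the direct contrast other than those given with it above. With both CDP arrays numbered 1 left out, 8 members had a called dip. The share of all genes with a dip was not counted in the refits. Leaving out 1 array at a time, called dips ranged from 3 to 7, members higher at both steps from 5 to 10, higher at the second step from 12 to 24, lower over the span from 2 to 4, and members below the mean of the other groups from 9 to 19. Over the same fits, members higher and lower at the first step ranged from 8 to 11 and from 6 to 12, and higher over the span from 15 to 21. The loss of calls without replicate 1 of the Pre-CD8 DCs came with fewer arrays, and its cause was not tested further. Both scalings left the median of all genes within 0.1 of its reported value. The small number of arrays and unknown background limit statements on dim members such as Ifit1, Ifit3, Ddx60 and Rtp4.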
